A study of Mus musculus with 9 samples.

Results

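Genes of the Nrf2 antioxidant response and of glutathione redox chemistry were examined in cultured mouse microglia exposed to medium from human glioma cells. The 10 genes listed were Nfe2l2, Keap1, Gclc, Gclm, Gsr, Gpx1, Prdx1, Srxn1, Txnrd1 and Nqo1. A gene was measured where at least 1 probe set of the array carried its symbol and no other, and its brightest probe set over the 9 arrays stood for it. On this rule 9 of the 10 were measured, among 17097 genes in all. Keap1, the adaptor that holds Nrf2 for degradation, had no probe set annotated to it alone and was not analysed here. In medium from LN18 cells only Gsr, with a lower signal, passed the test, as did 0.877% of all genes. It did so close to the threshold, and no longer passed without any 1 of 7 of the 9 arrays. The signals of Gsr, Gclc and Txnrd1 were lower, and that of Gpx1 higher, on every treated array than on every control array. Of all genes 5.29% were lower and 4.51% higher in this way. The differences of Gclm and Srxn1 rested mostly on replicate number 1, and those of Prdx1, Nqo1 and Nfe2l2 were small. Without control replicate 1 the differences of Gsr, Gclc and Txnrd1 were smaller too. The median log2 fold change of the 9 then went from -0.46 to -0.15 in medium from LN18 cells. In medium from U87-MG cells it went from -0.29 to -0.05.

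The cells were microglia from cortices of C57BL/6J mice of age P0-P2, grown as primary cultures in DMEM with fetal serum, glutamine and antibiotics. Control cells received no stimulus, and the other groups were kept for 6 h in glioma-conditioned medium (GCM) from LN18 or from U87-MG cells, both established human glioblastoma lines. Each group had 3 arrays, and the submitters state that the 3 replicates come from different cortical cultures. The comparisons ask how medium conditioned by each line alters microglial gene expression and whether the media differ in this. All groups therefore share strain, age, culture and serum, the conditioned media come from a different species than the responding cells, and any handling that came with the change of medium cannot be told apart from the glioma factors.

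Nrf2, the product of Nfe2l2, is a transcription factor that is kept low by Keap1-dependent degradation and accumulates when oxidants or electrophiles modify Keap1. With a small Maf partner it binds antioxidant response elements and drives genes of glutathione synthesis, thioredoxin reduction and quinone detoxification. Because Nrf2 is governed mostly at the level of the protein, the transcript of Nfe2l2 need not follow its activity, and readouts are usually taken from its target genes. In microglia, glutathione and thioredoxin systems buffer the peroxides made by the phagocyte NADPH oxidase.

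The upstream sequences of the members whose values are described below are shown to let a reader see which of them hold the letters of an antioxidant response element. RefSeq windows (GRCm38.p6) of 300 bases, from 250 before to 50 after a start, were at hand for 8 of the 10 genes and not for Gclc or Gsr. They were searched on both strands for TGACNNNGC, a core of the element, and for the wider TGANNNNGC, which takes in every match of the first. The core occurred in 4071 of 32851 windows of the table (12.4%), and the wider motif in 13581 (41.3%). Of the 8 listed genes with a window, 5 held the core and 6 the wider motif, counting every start of a gene. These are counts of genes, whereas the shares above are of windows, and Txnrd1 had 3 windows. Each line gives a stretch around 1 match on the strand of the gene, 5′ to 3′, with the 9 matched letters in capitals. For Gclm it is chr3:122245399-122245455 on the plus strand, for Prdx1 chr4:116685442-116685498 on the plus strand, for Srxn1 chr2:152105455-152105511 on the plus strand, for Txnrd1 chr10:82859090-82859146 on the plus strand and for Nfe2l2 chr2:75704871-75704913 on the minus strand.
Gclm: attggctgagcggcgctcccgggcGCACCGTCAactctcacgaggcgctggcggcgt
Prdx1: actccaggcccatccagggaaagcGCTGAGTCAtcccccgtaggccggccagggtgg
Srxn1: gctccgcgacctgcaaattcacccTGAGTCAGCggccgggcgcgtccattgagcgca
Txnrd1: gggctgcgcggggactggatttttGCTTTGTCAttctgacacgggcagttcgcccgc
Nfe2l2: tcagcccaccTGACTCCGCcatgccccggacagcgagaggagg
Read along the gene, the match of Gclm ends 126 bases before the start of transcription and reads TGACGGTGC on the opposite strand, and that of Prdx1 ends 125 bases before it and reads TGACTCAGC there. The match of Txnrd1 ends 84 bases before one of its starts and that of Nfe2l2 232 bases before its own. The match shown for Srxn1, which ends 37 bases before the start, fits the wider motif only, and a core match of Srxn1 after its start is not shown. In Prdx1 and Srxn1 the matched letters also contain the AP-1 site TGAGTCA or its reverse complement. Gpx1 and Nqo1 held neither motif in this window, which says nothing of bases outside it. A match of letters is a description and not a bound site.

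The labelled cell type was checked against its markers. Of 10 microglial markers 9 were measured, and their mean log2 signal was 8.53 to 8.70 on the control arrays, 8.98 to 9.01 on the GCM LN18 arrays and 8.81 to 8.99 on the GCM U87 arrays. Tyrobp and Trem2 had control means of 11.91 and 10.95, whereas P2ry12 and Tmem119, which mark microglia of the intact brain, were dim at 3.44 and 3.88. The mean signals of astrocyte, oligodendrocyte, neuronal and fibroblast or endothelial marker lists lay between 2.61 and 3.30 on every array. In each group their brightest single marker was of the oligodendrocyte lineage, at 5.15 in control, 5.18 in GCM LN18 and 5.12 in GCM U87. No marker of these 4 lists was called by limma in any comparison with control, with or without the block. In GCM U87 2 of their 23 measured markers had an unadjusted p under 0.05. Of the 9 microglial markers 2 rose in GCM LN18, Cx3cr1 by 0.97 (limma adjusted p = 0.00827) and Tmem119 by 0.91 (limma adjusted p = 0.0390). Cx3cr1 also rose by 0.78 in GCM U87 (limma adjusted p = 0.0499). Of the 9, 8 had a positive difference in each medium, with medians of 0.33 in GCM LN18 and 0.19 in GCM U87. An unadjusted p under 0.05 was reached by 5 in GCM LN18 and 2 in GCM U87, against 12.2% and 9.12% of all genes. Tyrobp and Trem2 each differed by 0.01 in GCM LN18. The part of these changes in the results below was not tested. In whole cultures, fewer cells of a type and less RNA per cell cannot be told apart. Control replicate 1 was the highest of the 9 arrays for 7 of the 9 measured members, against 17.3% of all genes. The means of the replicate numbers had been made equal before deposit, so a high control array goes with lower treated arrays of its number. Which of them was unusual cannot be told. Where leaving out control replicate 1 moved a difference by a large part, the value without it is given too. This was not done for genes named only after their values were seen.

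All values are log2 signals, on which a difference of 1 is a doubling. Differences were tested with limma over all 17097 genes with the replicate number as a block, and a call means a p under 0.05 after Benjamini-Hochberg adjustment. The fit without the block is given where it alters a call. Since differences between replicate numbers had been removed from the deposited values, that fit counts 6 residual degrees of freedom where 4 remain, and its p-values are too small. The comparisons of the media with untreated cells share the same 3 control arrays.

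**Figure D1:**
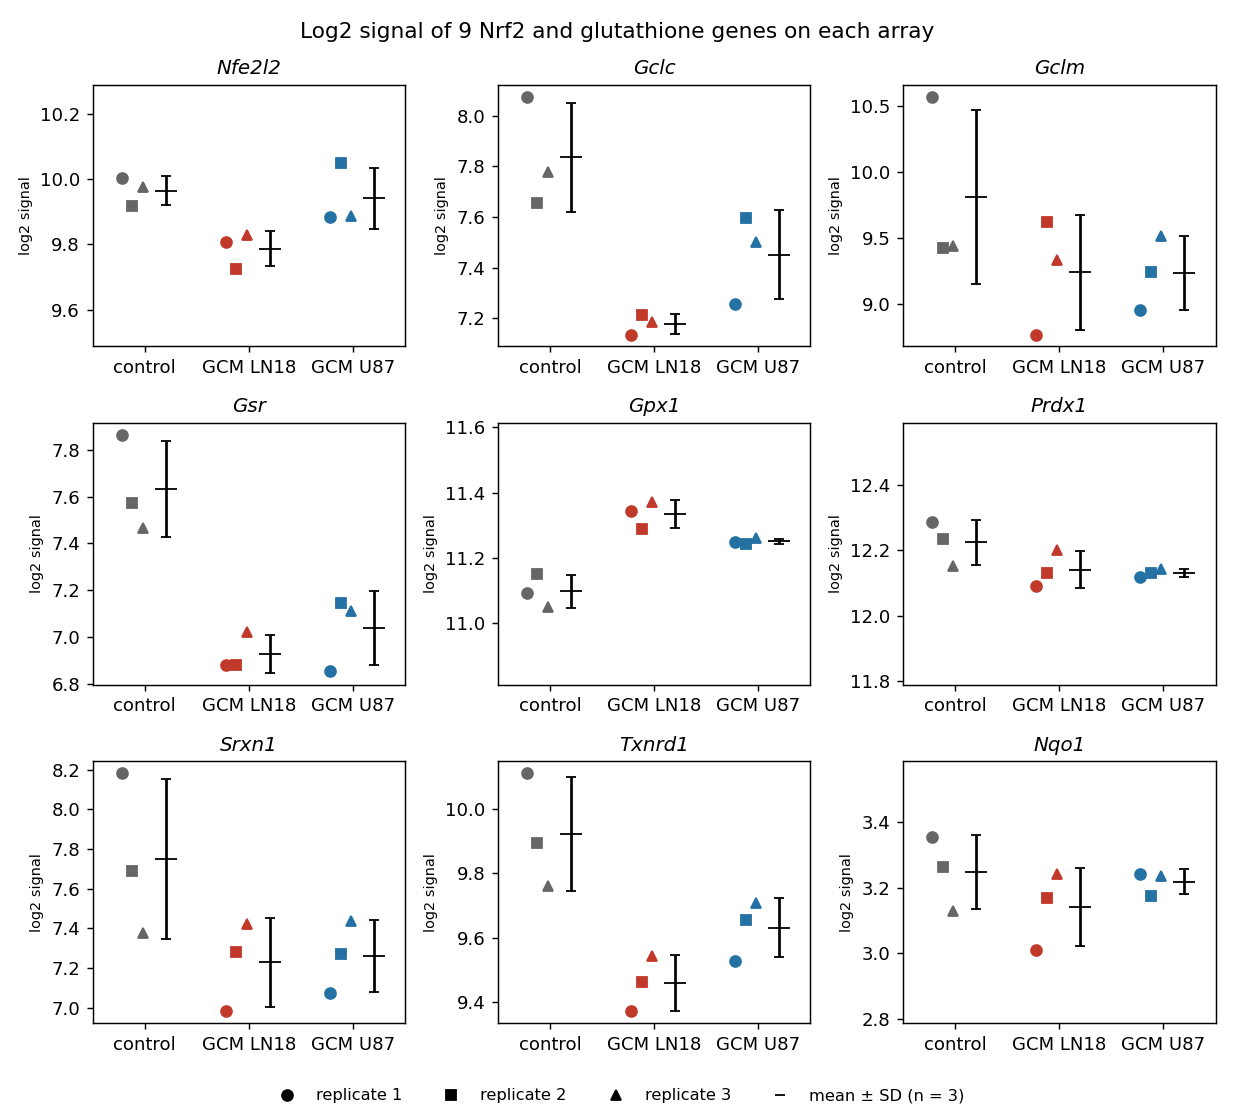
Log2 signal (vertical axis, a scale of its own in each panel) of the 9 measured genes on each of the 9 arrays, in the control, GCM LN18 and GCM U87 groups. Marker shapes give the replicate number, and the bar beside each group is its mean ± SD (n = 3). Gsr, Gclc and Txnrd1 lie lower on all treated arrays, as do 5.29% of all genes, and Gpx1 lies higher, as do 4.51%. Control replicate 1 tops 7 of the 9 panels, among them those of Gsr, Gclc, Txnrd1, Gclm and Srxn1.

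The largest change among the members tested was in Gsr, glutathione reductase, which uses NADPH to turn oxidized glutathione back into its reduced form. Its control arrays read 7.86, 7.57 and 7.46, its GCM LN18 arrays 6.88, 6.88 and 7.02, and its GCM U87 arrays 6.86, 7.14 and 7.11. All 6 treated arrays lay below all 3 control arrays. The mean fell from 7.63 ± 0.21 (SD, n = 3) to 6.93 ± 0.08 in GCM LN18, a log2 fold change of -0.70 (SE 0.12, 95% interval -0.98 to -0.43, limma adjusted p = 0.0473). For the mean of both media against control the log2 fold change was -0.65 (limma adjusted p = 0.0410), and -0.48 without control replicate 1. In GCM U87 the mean was 7.04 ± 0.16 and the log2 fold change -0.60 (95% interval -0.87 to -0.32), which did not pass with the block (limma adjusted p = 0.190) and did without it (limma adjusted p = 0.0386). Without control replicate 1 the log2 fold change in GCM U87 was -0.42. A second Gsr probe set, not used for the test, differed by -0.67 in GCM LN18 and by -0.48 in GCM U87. The call in GCM LN18 lay close to the threshold. It was lost when the probe sets of each gene were averaged (limma adjusted p = 0.0654) or when only the control and GCM LN18 arrays were fitted (limma adjusted p = 0.0751), and leaving out 1 array gave limma adjusted p from 0.0453 to 0.278. It held without control replicate 1, at a log2 fold change of -0.53 (limma adjusted p = 0.0453), or without GCM U87 replicate 1, and was lost without any 1 of the 7 other arrays. The call for the mean of both media against control held without control replicate 3 or GCM U87 replicate 2. That call was lost without any 1 of the 7 other arrays (limma adjusted p = 0.0600 to 0.140), among them control replicate 1.

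Glutathione is made in 2 steps, of which the first, carried out by glutamate-cysteine ligase, sets the rate. Gclc encodes the catalytic subunit of that ligase. It read 8.07, 7.66 and 7.78 on the control arrays, 7.14, 7.21 and 7.18 in GCM LN18 and 7.25, 7.60 and 7.50 in GCM U87. The groups formed 3 separate ranges, with control highest and GCM LN18 lowest. The log2 fold change was -0.66 in GCM LN18 (SE 0.12, 95% interval -0.95 to -0.37), past the test without the block (limma adjusted p = 0.0116) and not with it (limma adjusted p = 0.0589). With the block it was called under trend and robust estimation (limma adjusted p = 0.0348) and with array weights (limma adjusted p = 0.0340). It was -0.39 in GCM U87 (95% interval -0.67 to -0.10, limma adjusted p = 0.416). Without control replicate 1 these values became -0.48 and -0.21. Between the media Gclc differed by -0.27 (95% interval -0.56 to 0.01, limma adjusted p = 0.926), so that the order of GCM LN18 and GCM U87 was not settled by the test.

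Gclm encodes the modifier subunit of the same ligase, which raises the catalytic efficiency of Gclc. Its control arrays read 10.57, 9.42 and 9.44, those of GCM LN18 8.76, 9.62 and 9.33, and those of GCM U87 8.95, 9.24 and 9.51. Control replicate 1 was above all other arrays by a wide margin, and the remaining control arrays lay within the treated range. The log2 fold changes of -0.57 in GCM LN18 (95% interval -1.36 to 0.22, limma adjusted p = 0.578) and -0.58 in GCM U87 (limma adjusted p = 0.679) were therefore within the spread of replicates. Without control replicate 1 they were -0.00 and -0.01. Within replicate number 1 the difference of GCM LN18 from control was -1.81, against 0.20 and -0.11 within numbers 2 and 3.

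Gpx1, the abundant cytosolic glutathione peroxidase that consumes reduced glutathione to remove hydrogen peroxide, went the other way. It read 11.09, 11.15 and 11.05 on the control arrays, 11.34, 11.29 and 11.37 in GCM LN18 and 11.25, 11.24 and 11.26 in GCM U87. The 3 groups did not overlap, with control lowest and GCM LN18 highest. The log2 fold change was 0.24 in GCM LN18 (SE 0.06, 95% interval 0.11 to 0.37), called without the block (limma adjusted p = 0.0115) and not with it (limma adjusted p = 0.116), except under trend and robust estimation (limma adjusted p = 0.0348). In GCM U87 it was 0.15 (95% interval 0.02 to 0.28, limma adjusted p = 0.477). Leaving out any 1 array gave 0.20 to 0.28 in GCM LN18, so no single array set the direction. Gpx1 was the only measured member with a positive difference in either medium over all arrays.

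Txnrd1, the cytosolic thioredoxin reductase that passes electrons from NADPH to thioredoxin, resembled Gclc in its order. Its arrays read 10.11, 9.89 and 9.76 in control, 9.37, 9.46 and 9.55 in GCM LN18, and 9.53, 9.66 and 9.71 in GCM U87. Every treated array lay below every control array, while the media overlapped. In GCM LN18 the log2 fold change was -0.46 (SE 0.10, 95% interval -0.69 to -0.23), with a limma adjusted p = 0.0873 with the block and 0.0204 without it. In GCM U87 it was -0.29 (95% interval -0.52 to -0.06, limma adjusted p = 0.450). Without control replicate 1 the values were -0.32 and -0.15.

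Srxn1, sulfiredoxin, repairs peroxiredoxins that have been over-oxidized. It read 8.18, 7.69 and 7.38 in control, 6.98, 7.28 and 7.42 in GCM LN18 and 7.08, 7.27 and 7.44 in GCM U87. Control replicate 3 fell inside the range of both treated groups. The log2 fold changes of -0.52 (SE 0.21, limma adjusted p = 0.357) and -0.49 (limma adjusted p = 0.534) passed neither fit and became -0.20 and -0.17 without control replicate 1. The 3 other Srxn1 probe sets had differences from -0.41 to -0.09 in GCM LN18.

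Prdx1, a thioredoxin-dependent peroxidase and a substrate of sulfiredoxin, gave one of the brightest signals. It read 12.29, 12.23 and 12.15 in control, 12.09, 12.13 and 12.20 in GCM LN18 and 12.12, 12.13 and 12.14 in GCM U87. The control arrays overlapped those of GCM LN18 and lay just above those of GCM U87. The log2 fold changes were -0.08 (limma adjusted p = 0.666) and -0.10 (limma adjusted p = 0.700), and without control replicate 1 they were -0.04 and -0.05.

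Nqo1, the quinone reductase often used as a readout of Nrf2 activity, gave little signal. It read 3.35, 3.26 and 3.13 in control, 3.01, 3.17 and 3.24 in GCM LN18 and 3.24, 3.17 and 3.24 in GCM U87. All 3 groups overlapped, and every value was below 4.34, the median of the gene means on these arrays. The log2 fold changes were -0.11 (limma adjusted p = 0.692) and -0.03 (limma adjusted p = 0.944), and without control replicate 1 they were -0.03 and 0.05. At so dim a signal a change in the transcript may not be detectable.

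Nfe2l2 itself read 10.00, 9.92 and 9.98 in control, 9.81, 9.73 and 9.83 in GCM LN18 and 9.89, 10.05 and 9.89 in GCM U87. The GCM LN18 arrays lay below both other groups, whereas GCM U87 and control overlapped. The log2 fold change was -0.18 in GCM LN18 (SE 0.07, 95% interval -0.34 to -0.02, limma adjusted p = 0.342) and -0.02 in GCM U87 (95% interval -0.18 to 0.13, limma adjusted p = 0.947). The difference between the media, -0.15 (95% interval -0.31 to 0.00, limma adjusted p = 0.926), did not pass. A second, dim Nfe2l2 probe set differed by 0.06 and -0.08.

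**Figure D2:**
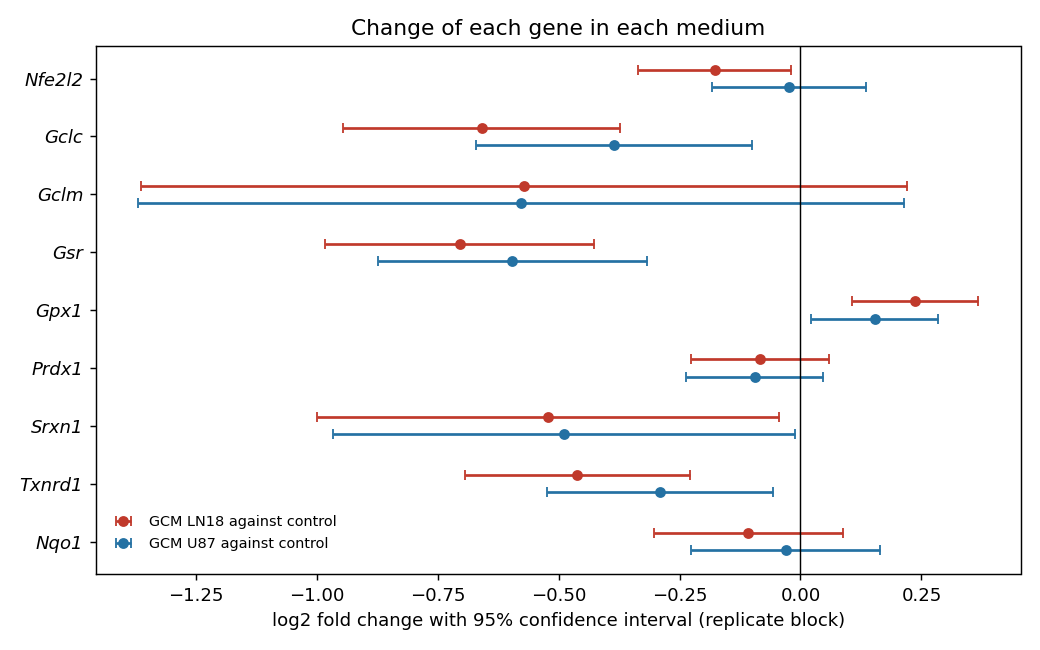
Log2 fold change against control (horizontal axis) of the 9 measured genes in GCM LN18 and GCM U87, with 95% confidence intervals from the limma fit with the replicate block (3 arrays per group). Gsr has the lowest estimate in each medium at -0.70 and -0.60, Gpx1 alone lies above 0, and the intervals of Gclm are the widest.

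Counted together, 1 of the 9 members (Gsr) was called in GCM LN18, where 0.877% of all genes were called. Without the block 4 were called (Gsr, Gclc and Txnrd1 lower, Gpx1 higher) against 5.23% of all genes. Of the 9, 4 lay lower without overlap in GCM LN18 (Nfe2l2, Gclc, Gsr and Txnrd1), against 12.8% of all genes, and 1 lay higher, against 11.1%. The median log2 fold change of the 9 was -0.46, that of all genes -0.00. Without control replicate 1 the median of the 9 was -0.15.

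In GCM U87 none of the 9 was called by limma with the block, where 0.0468% of all genes were called, although 5 had an unadjusted p under 0.05, as had 9.12% of all genes. Without the block Gsr alone was called, against 1.51% of all genes. Members whose GCM U87 arrays lay below all control arrays numbered 4 (Gclc, Gsr, Prdx1 and Txnrd1), against 10.3% of all genes, and 1 lay above them, against 8.79%. The median of the 9 was -0.29, and Gpx1 had the only positive value, where 8331 of 17097 genes had one. Without control replicate 1 the median was -0.05 and 3 members had a positive value (Gpx1, Nqo1 and Nfe2l2).

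For the mean of both media against control Gsr was called with the block, where 0.813% of all genes were called. Without the block the same 4 members were called as in GCM LN18, against 4.81% of all genes, with log2 fold changes of -0.52 for Gclc, -0.38 for Txnrd1 and 0.19 for Gpx1. Without control replicate 1 these values were -0.34, -0.23 and 0.19. In that comparison 3 members (Gclc, Gsr and Txnrd1) had all 6 treated arrays below the controls, against 5.29% of all genes, and 1 had all 6 above them, against 4.51%.

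Between the media no member was called by limma with or without the block, and none had an unadjusted p under 0.05 with it. Of all genes 0% were called with the block and 0.00585% without it. Nfe2l2 and Gclc lay lower in GCM LN18 than in GCM U87 without overlap, against 8.48% of all genes, and Gpx1 lay higher, against 8.92%. Gpx1 differed by 0.08 between the media (95% interval -0.05 to 0.21). For Gsr the difference was -0.11 (95% interval -0.39 to 0.17), and for Txnrd1 it was -0.17 (limma adjusted p = 0.926). A missed threshold does not show that the media acted alike on these genes.

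**Figure D3:**
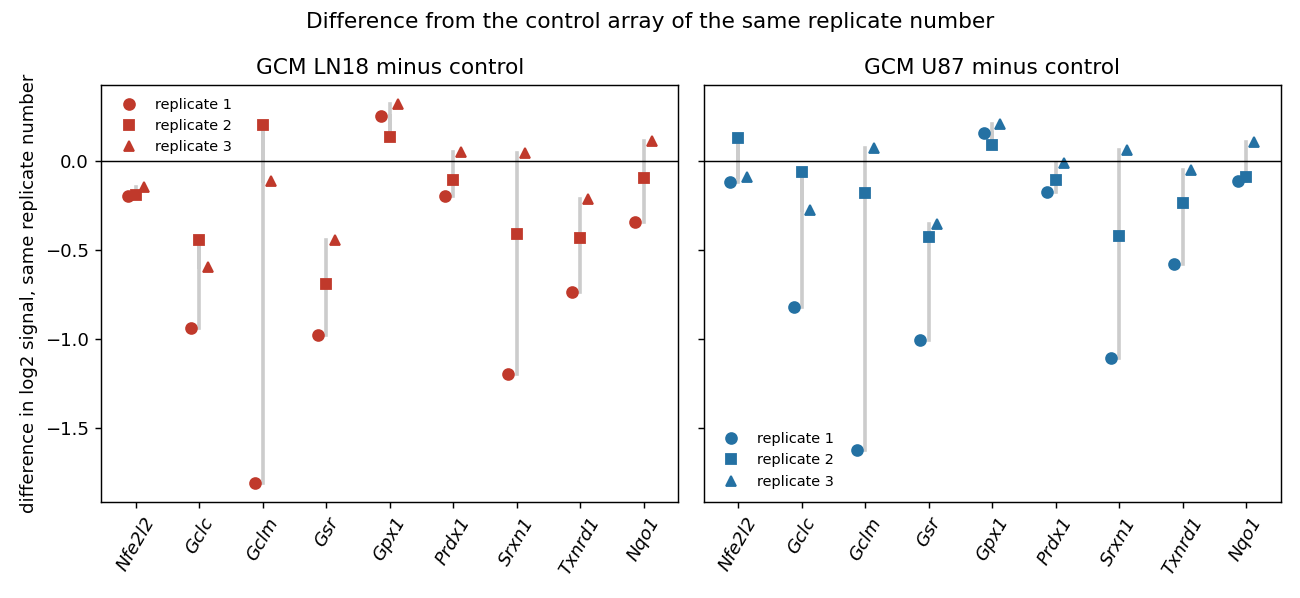
Difference in log2 signal (vertical axis) between each treated array and the control array of the same replicate number for the 9 measured genes, with GCM LN18 on the left and GCM U87 on the right. Replicate number 1 gives the lowest points for Gclm and Srxn1, -1.81 and -1.20 in GCM LN18, whereas Gsr and Txnrd1 are below 0 and Gpx1 above 0 in all 3 numbers in both media.

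Within replicate numbers, Gsr differed from its control by -0.98, -0.69 and -0.44 in GCM LN18 and by -1.01, -0.43 and -0.35 in GCM U87. Txnrd1 differed by -0.74, -0.43 and -0.22 in GCM LN18 and by -0.58, -0.24 and -0.05 in GCM U87. The sign was thus shared by all 3 numbers, with the greatest size in number 1. In GCM LN18 4 members were lower in 3 of 3 numbers (Nfe2l2, Gclc, Gsr and Txnrd1), as were 16.7% of all genes, and so were 4 in GCM U87 (Gclc, Gsr, Prdx1 and Txnrd1), as were 13.3% of all genes. Across the 9 arrays the 5 genes Gclc, Gclm, Gsr, Srxn1 and Txnrd1 varied together. Over their 10 pairs Pearson r was 0.75 to 0.96, and control replicate 1 was the highest array for each of the 5. Prdx1, which was left out of these 5, had r with them from 0.69 (Gclc) to 0.95 (Srxn1). Gpx1 had r from -0.89 to -0.35 with the other 8 members. These arrays share groups and replicate numbers, so the correlations are descriptions of 9 arrays only.

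Further genes of the pathway were taken from 9 lists by role, holding 108 genes of which 98 were measured. In GCM LN18 1 of the 98 rose and 2 fell with the block, where 0.877% of all genes were called. In GCM U87 none was called, where 0.0468% of all genes were. An unadjusted p under 0.05 was reached by 16 in GCM LN18, against 12.2% of all genes, and by 17 in GCM U87, against 9.12%. The fit without the block called 7 in GCM LN18, of which 6 were lower, against 5.23% of all genes, and 4 in GCM U87, of which 3 were lower, against 1.51%. The median log2 fold change of the 98 was -0.05 in each medium.

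The gene that rose was Glrx, glutaredoxin, which uses reduced glutathione to free protein thiols from mixed disulfides. It read 9.79, 9.83 and 9.87 in control, 10.57, 10.76 and 10.57 in GCM LN18 and 10.45, 10.22 and 10.36 in GCM U87, so that the 3 groups were separate. The log2 fold change was 0.81 in GCM LN18 (SE 0.08, limma adjusted p = 0.0129) and was also called under the 8 other settings that leave out no array of these groups. Leaving out any 1 of the 3 GCM LN18 arrays ended the call (limma adjusted p = 0.0555 to 0.0863). It was 0.51 in GCM U87, where the limma adjusted p was 0.116 with the block and 0.0170 without it. The other 7 measured genes of the list of glutathione peroxidases and glutaredoxins, among them Gpx4 (0.01 and -0.05), were not called, and the median of the list was 0.05 in GCM LN18.

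Of 15 measured thioredoxin, peroxiredoxin and methionine sulfoxide reductase genes, Txnrd3 fell in GCM LN18. This reductase of thioredoxin and glutathione is best known from testis. It read 4.81, 4.80 and 4.72 in control, 4.32, 4.36 and 4.48 in GCM LN18 and 4.50, 4.47 and 4.43 in GCM U87, at a dim signal. The log2 fold change was -0.39 in GCM LN18 (limma adjusted p = 0.0458) and -0.31 in GCM U87 (limma adjusted p = 0.200 with the block and 0.0275 without it). The call in GCM LN18 was lost when its probe sets were averaged (-0.22, limma adjusted p = 0.102), when only the groups compared were fitted (limma adjusted p = 0.117) and when any 1 array was left out (limma adjusted p = 0.0589 to 0.275). Txnip, the inhibitor of thioredoxin, had log2 fold changes of 0.31 (limma adjusted p = 0.269) and 0.14, or 0.19 and 0.02 without control replicate 1, and Txn1, thioredoxin itself, had -0.01 and -0.07.

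Of 18 other measured Nrf2 targets only Slc40a1 was called in GCM LN18. It encodes ferroportin, the exporter of iron from cells. It read 10.09, 9.12 and 9.33 in control, 7.19, 7.41 and 7.77 in GCM LN18 and 7.64, 8.39 and 7.82 in GCM U87, so that all treated arrays were lower. The log2 fold change was -2.05 in GCM LN18 (limma adjusted p = 0.0269) and -1.56 in GCM U87 (limma adjusted p = 0.167 with the block and 0.0323 without it), and -1.62 and -1.13 without control replicate 1. The call in GCM LN18 was lost with trend and robust estimation (limma adjusted p = 0.0681), and without control replicate 3 or any 1 GCM LN18 array (limma adjusted p = 0.0587 to 0.186). Unadjusted p-values under 0.05 numbered 5 of the 18 in GCM LN18 and 8 of the 18 in GCM U87, against 12.2% and 9.12% of all genes. The median of the 18 was -0.11 in GCM LN18, where 2 had a positive value, and -0.17 in GCM U87, where none had. Of all 17097 genes 8288 had a positive value in GCM LN18 and 8331 in GCM U87. How far control replicate 1 bears on the medians of the 18 was not tested.

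Hmox1, heme oxygenase 1, a classical Nrf2 target that is also repressed by Bach1, was bright. Control and GCM LN18 overlapped, and the GCM U87 arrays lay just below all control arrays. It read 11.04, 10.40 and 10.50 in control, 10.05, 10.52 and 10.43 in GCM LN18 and 10.20, 10.38 and 10.37 in GCM U87. The log2 fold changes were -0.31 (limma adjusted p = 0.572) and -0.33 (limma adjusted p = 0.657). As with Gclm, control replicate 1 was the highest array and GCM LN18 replicate 1 the lowest, which are not separate facts since replicate means were equal. Without control replicate 1 the values were -0.01 and -0.03.

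Of 11 measured genes that supply, make or break down glutathione limma called none with the block, and 1 (Chac1) had an unadjusted p under 0.05 in each medium. Slc7a11, the cystine importer, was dim at 4.05, 3.15 and 3.18 in control, 2.71, 3.22 and 3.25 in GCM LN18 and 2.87, 3.26 and 3.19 in GCM U87, with control replicate 1 again highest. Its log2 fold changes were -0.40 (limma adjusted p = 0.611) and -0.35, and 0.04 and 0.09 without control replicate 1. Gss, the second enzyme of glutathione synthesis, had 0.04 and 0.03. Chac1, which degrades glutathione in the cytosol and was picked here after its values were seen, had -0.94 in GCM LN18 (limma adjusted p = 0.120 with the block, 0.0378 without it) and -0.99 in GCM U87.

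Of 11 measured regulators and partners of Nrf2 none was called with the block. An unadjusted p under 0.05 was reached by 1 in each medium, Gsk3b in GCM LN18 and Nfe2l1 in GCM U87, against 12.2% and 9.12% of all genes. Nfe2l1 had log2 fold changes of -0.34 in GCM LN18 and -0.43 in GCM U87, and its arrays in each medium lay below all control arrays. Gsk3b, a kinase that marks Nrf2 for degradation, was the only one called without the block in GCM LN18 (-0.20, limma adjusted p = 0.0419). Cat, catalase, read 10.40, 10.03 and 10.03 in control, 9.75, 9.86 and 9.84 in GCM LN18 and 9.70, 9.96 and 9.98 in GCM U87. Its treated arrays all lay below the control arrays, with log2 fold changes of -0.34 (limma adjusted p = 0.302) and -0.27 (limma adjusted p = 0.565). Without control replicate 1 they were -0.15 and -0.08. None of 14 glutathione transferases and exporters, 11 genes of NADPH supply or 5 genes of the phagocyte NADPH oxidase was called by limma with the block, while 3, 1 and 0 of them in GCM LN18 and 3, 1 and 1 in GCM U87 had an unadjusted p under 0.05, as had 12.2% and 9.12% of all genes. Without it Idh1, a cytosolic source of NADPH, was called in GCM LN18 (-0.47), as was Blvra, biliverdin reductase, of the other Nrf2 targets (-0.26). Rac2, a regulator of the oxidase, was called without the block in GCM U87 (-0.31). Gsk3b, Nfe2l1, Idh1, Blvra and Rac2 were named after their values were seen. Prdx6 and G6pdx were not analysed here.

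**Figure D4:**
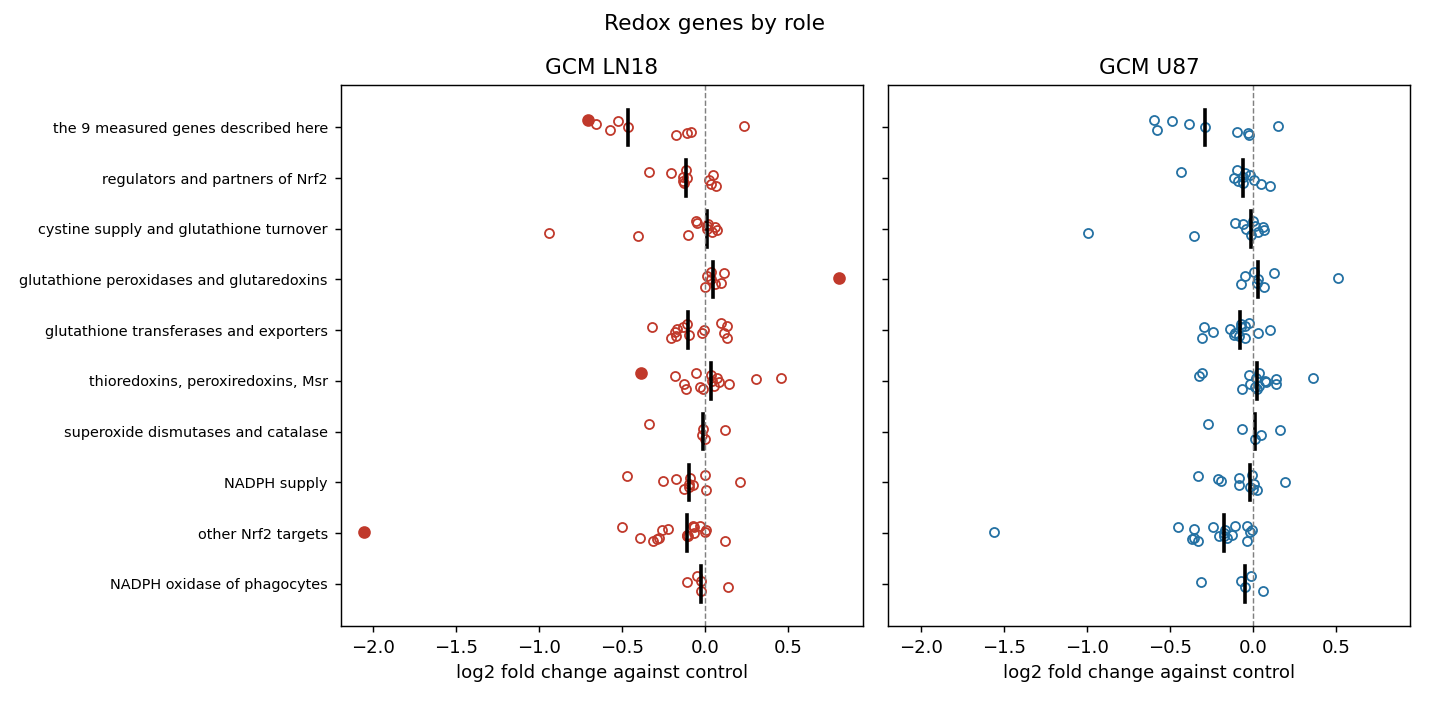
Log2 fold change against control (horizontal axis) of the 9 measured members (top row) and of 98 further redox genes in 9 lists by role, with GCM LN18 on the left and GCM U87 on the right. Each circle is a gene, filled where limma with the replicate block gave an adjusted p under 0.05, and the black bar is the median of the list, which for the members was -0.46 and -0.29.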

How the data were processed

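Each of 9 RNA samples went onto its own array of the Affymetrix mouse PM strip system. How the samples were placed on strips is not given in the sources used here. As deposited by the authors, the table gives log2 signals per probe set, from 1.56 to 12.88, with array medians of 3.39 to 3.41. The submitters' notes name limma, and the study's methods name RMA only under the comparison of public data sets, so whether it was used for these arrays is not given in the sources used here. Precision is set by the 3 arrays in each group, since arrays carry no read depth. The table held 45141 probe sets, of which 104 were controls. Of the others 28898 carried 1 symbol in the platform annotation, 551 several and 15588 none, and the last 2 kinds were left out.

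Keeping only the brightest probe set of every gene gave 17097 genes. Groups came from the sample titles. A linear model with 1 mean per group and the replicate number as a block was fitted to all 9 arrays with limma 3.58.1 in R 4.3.3 and tested by its moderated statistics for 4 comparisons, with Benjamini-Hochberg adjustment over all genes at 0.05. The pairing was read from the values: for 100% of probe sets the means of the 3 replicate numbers were equal within 1e-06, so differences between the numbers had been removed before deposit, and the fit has 4 residual degrees of freedom, against 6 without the block. The labels do not say that a number marks 1 culture in all groups. Whether replicates vary as separate cultures do is therefore only partly visible.

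The members and lists were chosen with earlier results of these data known. Named genes were the members, list genes called with the block (at most 3 per list) and a set of 10 redox genes, of which 8 were measured and 1 (Slc40a1) was also called. Alternatives were no block, eBayes with trend and robust options, dropping genes with a mean under 5, averaged probe sets, other normalizations, array weights, fewer groups and leaving out arrays. The fits were tested on simulated data. Promoter windows were searched in Python 3.11.15 and plots drawn with matplotlib 3.10.9.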

Additional observations from a re-analysis of the deposited data

How the results depend on the processing

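Gsr in GCM LN18 kept its direction under all alternatives and its call under 6 of 8 that used all arrays of the groups compared. No replicate block gave 894, 259, 1 and 823 genes called for GCM LN18, GCM U87, the difference of the media and the mean of both media, and 4, 1, 0 and 4 members. Of the other settings, trend and robust estimation called 3 members in GCM LN18, 2 for the mean of both media, and 21 genes in GCM U87. Averaged probe sets called 0 and 0 members and 5 genes in GCM U87. Only the groups compared called 89 genes and 0 members in GCM LN18 and 0 genes in GCM U87. Array weights called 265 genes and 2 members in GCM LN18 and 4 genes in GCM U87, and a filter on dim genes and quantile normalization 3 genes each there. Leaving out 1 array gave 3 to 179 genes in GCM LN18, 0 to 10 in GCM U87, 0 between the media and 10 to 154 for both, and 0 to 1, 0, 0 and 0 to 1 members. Leaving out a replicate number, chosen after seeing the data, gave 2 to 11, 0 to 3, 0 and 2 to 35 genes and 0 members.

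The directions that turned were of values without a call, and the cause was not tested. Gpx4 in GCM LN18 was -0.0037 with quantile normalization, and Nqo1 in GCM U87 was 0.0037 with array weights. When arrays were left out, the range in GCM LN18 was -0.96 to 0.046 for Gclm, -0.22 to 0.010 for Nqo1, -0.035 to 0.052 for Gpx4, -0.53 to 0.029 for Hmox1 and -0.64 to 0.067 for Slc7a11. In GCM U87 it was -0.11 to 0.023 for Nfe2l2, -0.12 to 0.049 for Nqo1, -0.11 to 0.011 for Gpx4, -0.012 to 0.11 for Gss and -0.59 to 0.088 for Slc7a11.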

Other observations

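Among all 17097 genes, those whose log2 signal over the 9 arrays was most like that of Nfe2l2 by Pearson r were Slc25a44 (r = 0.98), Cd83 (r = 0.98) and Dcun1d2 (r = 0.98). Cd83, a surface protein of activated antigen-presenting cells, had log2 fold changes of -0.49 in GCM LN18 and -0.12 in GCM U87. The genes most like Nqo1, whose own signal was dim, were Usp43 (r = 0.99), Riox2 (r = 0.97) and Rmc1 (r = 0.97). These are the highest values over all other genes for each gene over arrays that share groups and replicate numbers, so they are given as descriptions only.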
